A study of Mus musculus with 2 samples.

Results

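Imprinted genes, led by the long noncoding RNA Meg3, were followed in fate-mapped smooth muscle cells (SMCs) of the mouse thoracic aorta. The listed genes were Meg3, Rian, Mirg and Dlk1 of the Dlk1-Dio3 locus, H19, Peg3, Plagl1, Ndn and Grb10, 9 genes of the 28000 features in the deposited count matrices. They were listed with the lower Meg3 level in the knockout library already known, so every comparison of Meg3 between the libraries is a description without a test. A row was found for 8 of the 9, and Rian was not analysed here. Both libraries came from male C57BL/6 mice that carried Myh11-CreERT2, a tamoxifen-dependent recombinase driven by a smooth muscle myosin promoter, and mT/mG, a reporter whose membrane tdTomato is exchanged for membrane eGFP in recombined cells and their descendants. The control mice were labelled Tsc1+/+, and the mice labelled KO (Tsc1-/-) also carried Tsc1 fl/fl, floxed alleles of the gene for hamartin, a brake on the growth kinase complex mTORC1. All mice were given tamoxifen at 1.5 weeks of age, thoracic aortas were digested at 24 weeks, and viable GFP+ cells were sorted and sequenced as 1 droplet library per genotype. The control mice therefore share the recombinase, the reporter and the tamoxifen, and the Myh11 promoter limits the marked cells to those that had it active when tamoxifen was given. The sources used here do not give the number of animals per library. With 1 library per genotype no difference has a replicate check, and all intervals below are 95% intervals of counting error only.

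An imprinted gene is expressed mainly from the copy inherited from 1 parent, because DNA methylation laid down in the egg or sperm marks a control region that silences the other copy. At Dlk1-Dio3 the maternal chromosome makes the noncoding RNAs Meg3, Rian and Mirg in the same direction, and the paternal chromosome makes the protein-coding Dlk1, Rtl1 and Dio3. Meg3 is known as a growth-restraining noncoding RNA, Mirg is the host transcript of a microRNA cluster, and Dlk1 is a membrane protein of progenitor cells. Peg3 is a paternally expressed zinc finger protein, Ndn (necdin) a growth suppressor of the Prader-Willi region, Plagl1 (Zac1) a zinc finger transcription factor, Grb10 an adaptor that restrains insulin and growth factor receptor signalling and is a known substrate of mTORC1, and H19 a fetal noncoding RNA opposite Igf2.

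The promoters of Meg3, of its neighbour Dlk1 and of Peg3 are shown because Meg3 and Peg3 were the 2 members with the smallest knockout to control ratios while Dlk1 was nearly silent beside Meg3. The sequences are from RefSeq (build GRCm38.p6), where 7 of the 9 members had a promoter. Each runs 5′ to 3′ on the gene's strand, and capitals mark TGACGTCA, the palindromic cyclic AMP response element, searched on both strands. The Meg3 window is chr12:109540746-109541045 (plus strand, 250 bases before the start and 50 after), the Dlk1 window is chr12:109452573-109452822 (plus strand, 250 bases before the start) and the Peg3 window is chr7:6730420-6730669 (minus strand, 250 bases before the start).
Meg3: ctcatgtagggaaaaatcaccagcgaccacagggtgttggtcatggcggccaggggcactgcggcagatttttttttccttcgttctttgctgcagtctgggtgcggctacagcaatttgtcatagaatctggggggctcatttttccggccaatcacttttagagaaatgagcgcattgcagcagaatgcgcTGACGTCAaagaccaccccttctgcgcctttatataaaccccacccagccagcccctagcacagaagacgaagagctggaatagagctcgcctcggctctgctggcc
Peg3: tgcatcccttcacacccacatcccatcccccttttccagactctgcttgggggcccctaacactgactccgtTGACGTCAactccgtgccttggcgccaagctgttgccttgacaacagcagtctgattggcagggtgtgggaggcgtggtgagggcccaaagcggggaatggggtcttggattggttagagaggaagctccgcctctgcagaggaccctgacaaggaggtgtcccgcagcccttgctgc
Dlk1: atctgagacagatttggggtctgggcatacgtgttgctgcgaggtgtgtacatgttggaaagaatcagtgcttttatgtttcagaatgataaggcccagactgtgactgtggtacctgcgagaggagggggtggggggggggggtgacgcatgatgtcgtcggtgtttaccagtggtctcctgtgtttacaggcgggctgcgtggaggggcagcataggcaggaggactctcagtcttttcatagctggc
The Meg3 promoter holds 1 TGACGTCA, starting 57 bases before the listed start, and the Peg3 promoter holds 1 that starts 178 bases before its start. The same 8 letters were found in 1.79% of the 32851 mouse promoters of 300 bases, and in none of the other 5 members' windows (Mirg, Dlk1, Plagl1, Ndn and Grb10). The other motifs were searched on both strands as well. Meg3 had 2 hits of TATAAA, 1 on each strand, which overlap in a single stretch, and TATAAA was found in 13.6% of promoters. It also had 1 hit of TGCCGC, the core of the motif bound by the imprint-protecting factor ZFP57, found in 11.6%. TATAAA was in no other member's window, whereas TGCCGC was also found once each in those of Plagl1 and Grb10. A CArG box, the motif of the contractile gene regulator SRF, was in none of the 7 windows and in 1.63% of all promoters. CpG dinucleotides numbered 13 in the Meg3 window, 13 in that of Peg3 and 45 in that of Grb10, against a median of 7. For Mirg, Ndn, Plagl1 and Grb10 the listed RefSeq start lies 5217, 1708, 30328 and 1263 bases from the outermost GENCODE start, so their windows may not be the promoters in use in these cells.

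The microRNAs carried by Meg3 and Mirg show what else the host transcripts encode. The span of Meg3 holds 1 hairpin with 2 mature microRNAs and that of Mirg 14 hairpins with 26, and these 28 mature sequences have 27 different seeds (bases 2 to 8, in capitals). The pair below from Meg3 stands for its only hairpin, and the last 2 lines are the only microRNAs of these spans that share a seed.
miR-770-5p: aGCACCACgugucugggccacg
miR-770-3p: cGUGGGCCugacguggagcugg
miR-453: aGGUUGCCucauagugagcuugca
miR-496a-5p: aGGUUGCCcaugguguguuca
The droplet libraries count transcripts of genes and not mature microRNAs, so nothing was measured of these small RNAs.

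Members were counted over labelled cells, meaning those with at least 5 UMIs (unique molecular identifiers, each counting 1 RNA molecule) of eGFP, no fewer than 500 genes and a mitochondrial share of UMIs up to 10%. This kept 1692 of 2095 control barcodes with 20011501 UMIs and 1919 of 2097 KO barcodes with 30778165 UMIs. A median of 11665 UMIs per control cell and 15012 per KO cell was counted, so CPM (UMIs of a gene for every 1000000 UMIs, summed over cells) is used throughout, and 3 UMIs equal 0.150 and 0.0975 CPM. The libraries share 16 barcodes, of which 4 are labelled in both. The control library also held 330 cells without eGFP, of which 296 had Xist UMIs although the mice were labelled male, against 5 of the labelled cells. In the KO library 11 of the 12 cells without eGFP had Xist UMIs, against 4 of the labelled cells. The summed level of 7 SMC markers was 43465 CPM in labelled control and 20895 CPM in labelled KO cells, and none of the 7 was at 0. In the low tercile of contractile share (defined below) the sum was 27677.5 CPM in control but 5301 CPM in KO cells, against 39676 CPM in the high KO tercile. The pooled sum therefore does not show that the SMC label holds equally for all KO cells. Tsc1 itself had 191 and 263 UMIs, 9.54 and 8.55 CPM, and since the sources used here do not give which end of a transcript was read, this count does not check the deletion.

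Meg3 (ENSMUSG00000021268, chromosome 12, 109541001 to 109571726, plus strand, mm10) was the member with the largest difference between the libraries. It had 12382 UMIs in labelled control cells, or 619 CPM (608 to 630), and 3368 UMIs in labelled KO cells, or 109 CPM (106 to 113). The KO to control ratio was 0.177 (0.170 to 0.184), a level 5.65 times lower in the KO library. A Meg3 UMI was found in 64.6% of control cells (62.3 to 66.9) and in 24.2% of KO cells (22.3 to 26.2), although the KO cells were sequenced more deeply. With every cell thinned to 5000 UMIs, leaving out 90 control and 17 KO cells that had fewer, the shares were 52.8% of 1602 and 16.1% of 1902 cells, and the mean among cells with a UMI was 5.90 and 3.65 UMIs. Thus both the share of cells with Meg3 and the level in such cells were lower in the KO library. In the 330 control cells without eGFP there was 1 Meg3 UMI (0.758 CPM, 0.303% of cells at a median depth of 3750 UMIs). These cells were picked for having no eGFP UMI, whereas labelled control cells had 5660 CPM of eGFP. Cells that had taken up free SMC RNA would tend to be left out by that choice, so free Meg3 RNA was not measured. The KO library had only 12 cells without eGFP, with 5 Meg3 UMIs or 90.9 CPM (29.5 to 212), an interval that holds the labelled KO level. Just inside the eGFP limit, at 5 to 9 UMIs, 31 control cells had 915 CPM and 34 KO cells 95.2 CPM, and just outside, at 1 to 4 UMIs, 20 control cells had 642 CPM and 5 KO cells 307 CPM.

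Meg3 was spread unevenly over the cells of either library. The quartiles of Meg3 UMIs per control cell were 0, 2 and 9, the 90th percentile was 21 and the highest cell had 126. In the KO library all 3 quartiles were 0, the 90th percentile was 5 and the highest cell had 72. The cells in the top 10% by Meg3 held 53.3% of all Meg3 UMIs of the control library and 82.4% of those of the KO library. If each cell had the library's Meg3 CPM at its own depth, counting alone would leave 0.813% and 21.2% of cells without a Meg3 UMI. The shares counted without a Meg3 UMI were 35.4% and 75.8%. Cells with 5 or more Meg3 UMIs numbered 639 in the control library (37.8%) and 209 in the KO library (10.9%).

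**Figure D1:**
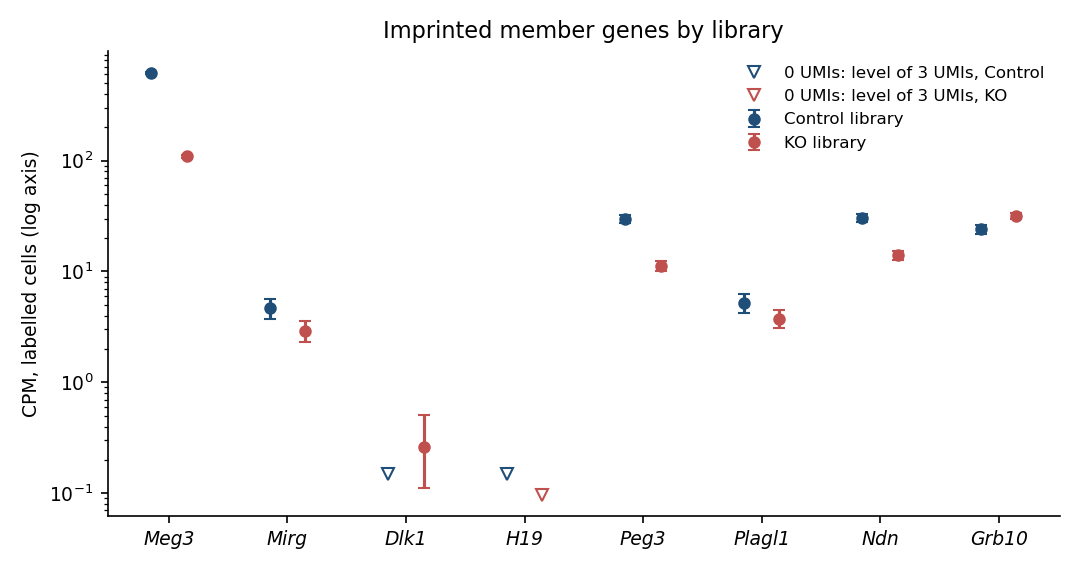
Level of the 8 members with a row in labelled cells (CPM, log axis), control library in blue and KO library in red, with exact 95% Poisson intervals; open triangles mark the level of 3 UMIs where no UMI was counted. Meg3 is at 619 CPM in control and 109 CPM in KO cells, Peg3 and Ndn are also lower in the KO library, and Grb10 is slightly higher.

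The neighbours of Meg3 were much less abundant. Mirg (ENSMUSG00000097391, chromosome 12, 109729764 to 109749460, plus strand) had 93 UMIs in control and 89 in KO cells, 4.65 CPM (3.75 to 5.69) and 2.89 CPM (2.32 to 3.56), with a ratio of 0.622 (0.460 to 0.841). The noncoding gene B830012L14Rik (chromosome 12, 109695586 to 109702587, plus strand), which lies between Meg3 and Mirg, had 81 and 23 UMIs, 4.05 and 0.747 CPM, and its ratio of 0.185 (0.111 to 0.296) overlapped that of Meg3. Gm26945, another plus-strand noncoding gene between them, had 14 and 4 UMIs and a ratio of 0.186 (0.0445 to 0.592). It was added after its values were seen. The interval of the Mirg ratio lies above those of Meg3 and B830012L14Rik. The paternally expressed genes were close to the floor: Rtl1 had 6 and 4 UMIs, Dio3, an enzyme that inactivates thyroid hormone, 1 and 9, and Dlk1 0 and 8. All 8 Dlk1 UMIs came from 5 KO cells, and for the 0 of the control library the limit of 3 UMIs is 0.150 CPM. Gm26906, which lies antisense to the 3′ end of Meg3 and was also added after its values were seen, had 4 and 0 UMIs, and reads of this pair can be told apart only if strand was used in counting, which the sources here do not say. The 6 genes of the locus with a row summed to a ratio of 0.181 (0.174 to 0.188), and without Meg3 the other 5 summed to 0.478 (0.379 to 0.601).

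The 3 noncoding RNAs were found in the same cells. Of the 93 Mirg UMIs of the control library, 83 lay in the 639 cells with 5 or more Meg3 UMIs, 8 in the 454 cells with 1 to 4, and 2 in the 599 cells with none. This is a level of 10.6 CPM (8.46 to 13.2) in the Meg3-high and 0.289 CPM (0.0350 to 1.04) in the Meg3-negative cells, a ratio of 36.8 (9.87 to 309). B830012L14Rik had 76, 4 and 1 of its 81 UMIs in these classes, a ratio of 67.4 (11.7 to 2697). Median depth was 11925 UMIs in the Meg3-high and 11557 in the Meg3-negative control cells, so depth hardly differed between them. In the KO library B830012L14Rik had 21 of its 23 UMIs in the 209 Meg3-high cells and 0 in the 1455 Meg3-negative cells, or 6.06 CPM (3.75 to 9.27) against a limit of 0.130 CPM set by 3 UMIs.

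Mirg differed from B830012L14Rik in KO cells without Meg3. It had 40 UMIs (11.5 CPM, 8.25 to 15.7) in Meg3-high KO cells, close to the control level of that class, but also 35 UMIs (1.51 CPM, 1.05 to 2.10) in Meg3-negative KO cells, and the ratio of the classes was 7.64 (4.73 to 12.4). The Meg3-negative level of Mirg was thus above that of the control library (0.289 CPM, up to 1.04). Of these 35 UMIs, 27 came from the 431 Meg3-negative cells in the low tercile of contractile share (defined below), 3.71 CPM (2.45 to 5.40), and 2 from the 531 in the high tercile. Cells with 5 or more UMIs of the fibroblast markers Pdgfra, Dpt, Lum, Dcn and Pi16 together held 19 of the 35. Leaving out such cells in both libraries, a choice made after the data were seen, kept 1667 of 1692 control and 1480 of 1919 KO cells. The Mirg ratio between the libraries was then 0.383 (0.259 to 0.560).

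**Figure D2:**
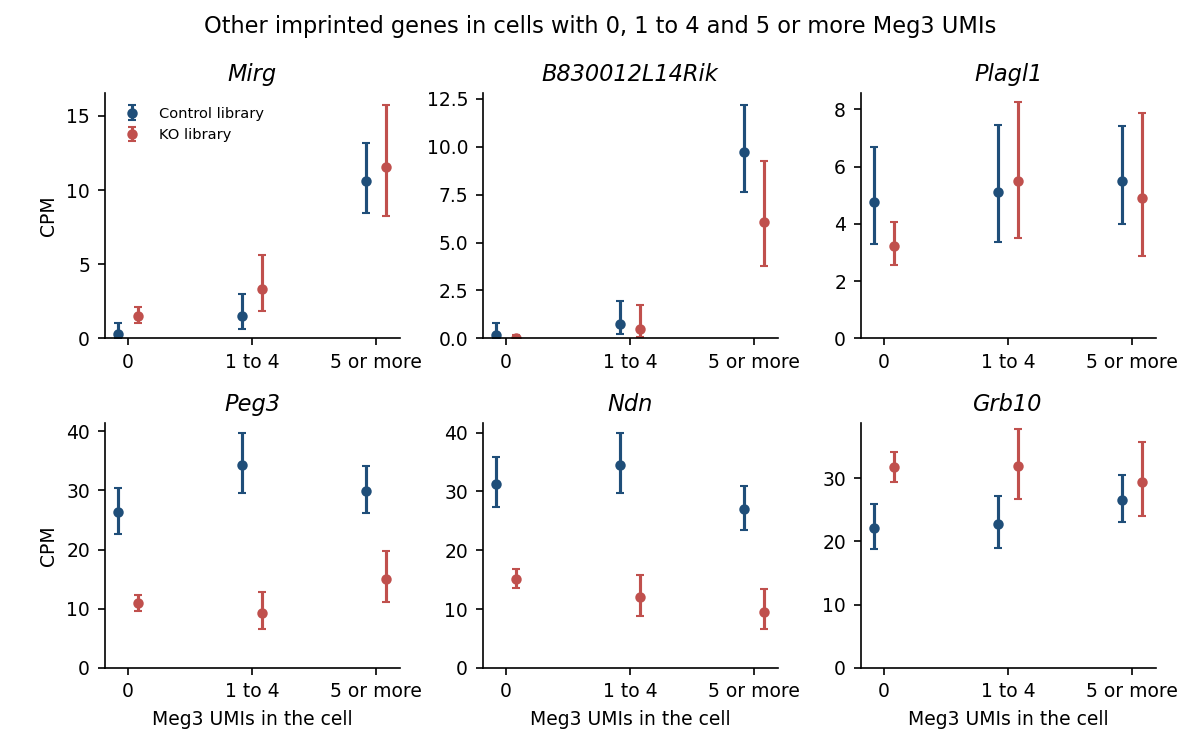
CPM of 6 imprinted genes in cells with 0, 1 to 4 and 5 or more Meg3 UMIs, control library in blue and KO library in red, with exact 95% Poisson intervals. Mirg and B830012L14Rik are near 0 in control cells without Meg3 and near 10 CPM in Meg3-high cells, whereas the ratio of these classes is between 0.632 (Ndn, KO) and 1.51 (Plagl1, KO) for Plagl1, Peg3, Ndn and Grb10.

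Members from other chromosomes differed far less between these classes. Between Meg3-high and Meg3-negative cells the ratio in the control and KO library was 1.14 and 1.38 for Peg3, 1.16 and 1.51 for Plagl1, 1.21 and 0.928 for Grb10, and 0.862 and 0.632 for Ndn. Plagl1 was below 10 CPM in every class, and Ndn was lower in Meg3-high KO cells by more than 1.5 times, with an interval of 0.428 to 0.904. Of the imprinted genes outside Dlk1-Dio3 at 10 CPM or more in either class, Peg3, Ndn and Grb10 included, 29 in the control library had ratios between 0.862 and 1.41 with a median of 1.04. In the KO library 27 such genes had ratios between 0.632 and 1.38 with a median of 1.01. The ratios of Mirg and B830012L14Rik lay outside these ranges in both libraries, but the ranges come from more abundant genes. B830012L14Rik was below 10 CPM in every class, and Mirg reached 10 CPM only in the Meg3-high class. Some sparse genes outside Dlk1-Dio3, named after their values were seen, also left these ranges. Igf2, the fetal growth factor, had 22 UMIs in Meg3-high and 6 in Meg3-negative control cells, a ratio of 3.25 (1.28 to 9.80). In the KO library 67 of its 68 UMIs lay in Meg3-negative cells. Nnat had 6 UMIs in Meg3-high and 8 in Meg3-negative KO cells, a ratio of 5.01 (1.43 to 16.5). These counts are too few to weigh.

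Among the members outside Dlk1-Dio3, Peg3 and Ndn were lower in the KO library. Peg3 (ENSMUSG00000002265, chromosome 7, 6703892 to 6730431, minus strand) had 597 UMIs in control cells, 29.8 CPM (27.5 to 32.3), and 343 in KO cells, 11.1 CPM (10.0 to 12.4), a ratio of 0.374 (0.326 to 0.427). At 5000 UMIs it was found in 13.4% of control cells and 5.57% of KO cells. Ndn (ENSMUSG00000033585, chromosome 7, 62346569 to 62350262, plus strand) had 610 and 432 UMIs, 30.5 CPM (28.1 to 33.0) and 14.04 CPM (12.7 to 15.4), a ratio of 0.460 (0.406 to 0.522). Both ratios are well above that of Meg3, and no interval of the 3 genes overlaps another.

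Grb10 went the other way by a small margin. It (ENSMUSG00000020176, chromosome 11, 11930508 to 12038683, minus strand) had 481 UMIs in control cells, 24.0 CPM (21.9 to 26.3), and 969 in KO cells, 31.5 CPM (29.5 to 33.5), a ratio of 1.31 (1.17 to 1.46). With cells thinned to 5000 UMIs the ratio was 1.48 and with at most 5% mitochondrial UMIs 1.12. Plagl1 (ENSMUSG00000019817, chromosome 10, 13060504 to 13131694, plus strand) was sparse, with 103 and 115 UMIs, 5.15 CPM (4.20 to 6.24) and 3.74 CPM (3.08 to 4.49), and a ratio of 0.726 (0.552 to 0.956). Without cells of the Dlx5, Dlx6 and Msx2 group described below the Plagl1 ratio was 0.534, with at most 5% mitochondrial UMIs it was 0.477, and with cells thinned to 5000 UMIs it was 0.931, with an interval (0.586 to 1.48) that includes 1. H19 (ENSMUSG00000000031, chromosome 7, 142575529 to 142578143, minus strand) had no UMI in a labelled cell of either library, and 3 UMIs, taken as the limit that a count of 0 allows, equal 0.150 CPM (control) and 0.0975 CPM (KO).

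Of the 8 members with a row, 4 reached 10 CPM in 1 or both libraries (Meg3, Peg3, Ndn and Grb10), and all 4 did so in both. By a limit of 1.5 times, 3 of the 4 were lower in the KO library and 0 were higher. Over all 8113 genes at 10 CPM, 11.4% were lower and 13.2% higher by the same limit. The members were listed with this contrast in view, so nothing is read from their count.

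A list of 71 genes known as imprinted, from 16 loci and a few singletons, gives the setting. The counts do not tell parental copies apart, so whether a listed gene is imprinted in these cells was not measured. It had 67 genes with a row, of which 30 reached 10 CPM: 6 were lower, 3 higher and 21 within 1.5 times. The median log2 ratio of the 30 was -0.05, against -0.001 over all genes tested. The other 37 were too sparse to be called. Among these, named after their values were seen, Zdbf2 had 104 UMIs in control and 20 in KO cells and the organic cation transporter Slc22a2 135 and 45, whereas the transporters Slc22a18 with 8 and 182 and Slc38a4 with 2 and 206 (a ratio of 67.0, 18.3 to 557) had more in KO cells. Leaving out the members, 3 of 26 were lower and 3 higher. Of these 6, Cobl and Ppp1r9a reached 10 CPM in 1 library only, the one where they were higher. The lower ones were Cdkn1c (the cell cycle inhibitor p57) at 47.2 and 29.4 CPM with a ratio of 0.622 (0.567 to 0.682), Snrpn, a splicing protein gene of the Prader-Willi region, at 52.8 and 34.4 CPM with a ratio of 0.651 (0.597 to 0.709), and Cobl, an actin nucleator beside Grb10, at 11.8 and 5.26 CPM with a ratio of 0.444 (0.362 to 0.545). The higher ones were Igf2r, the receptor that carries mannose 6-phosphate enzymes to lysosomes, at 28.7 and 54.8 CPM with a ratio of 1.91 (1.74 to 2.10), the intramembrane protease H13 at 70.7 and 128 CPM with a ratio of 1.81 (1.70 to 1.92), and Ppp1r9a, a protein phosphatase regulator, at 8.84 and 13.7 CPM with a ratio of 1.55 (1.29 to 1.85).

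The other imprinted genes at 50 CPM or more stayed within 1.5 times. Gnas, the stimulatory G protein alpha subunit, had 1800 and 1507 CPM, a ratio of 0.837 (0.826 to 0.849). Ube3a, a ubiquitin ligase next to Snrpn, had a ratio of 0.896, Sgce (epsilon-sarcoglycan) 0.706, Nap1l4 0.817, Commd1 1.10, the paraoxonase Pon2 1.44 and the noncoding RNA Kcnq1ot1 1.44. Cdkn1c and Kcnq1ot1, which sit at the same Kcnq1 locus and are expressed from opposite parental chromosomes, thus lay on opposite sides of 1. Several of these genes overlap another transcript (Igf2r and Airn, H13 and Mcts2, Commd1 and Zrsr1), and reads of such pairs may be assigned to either.

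**Figure D3:**
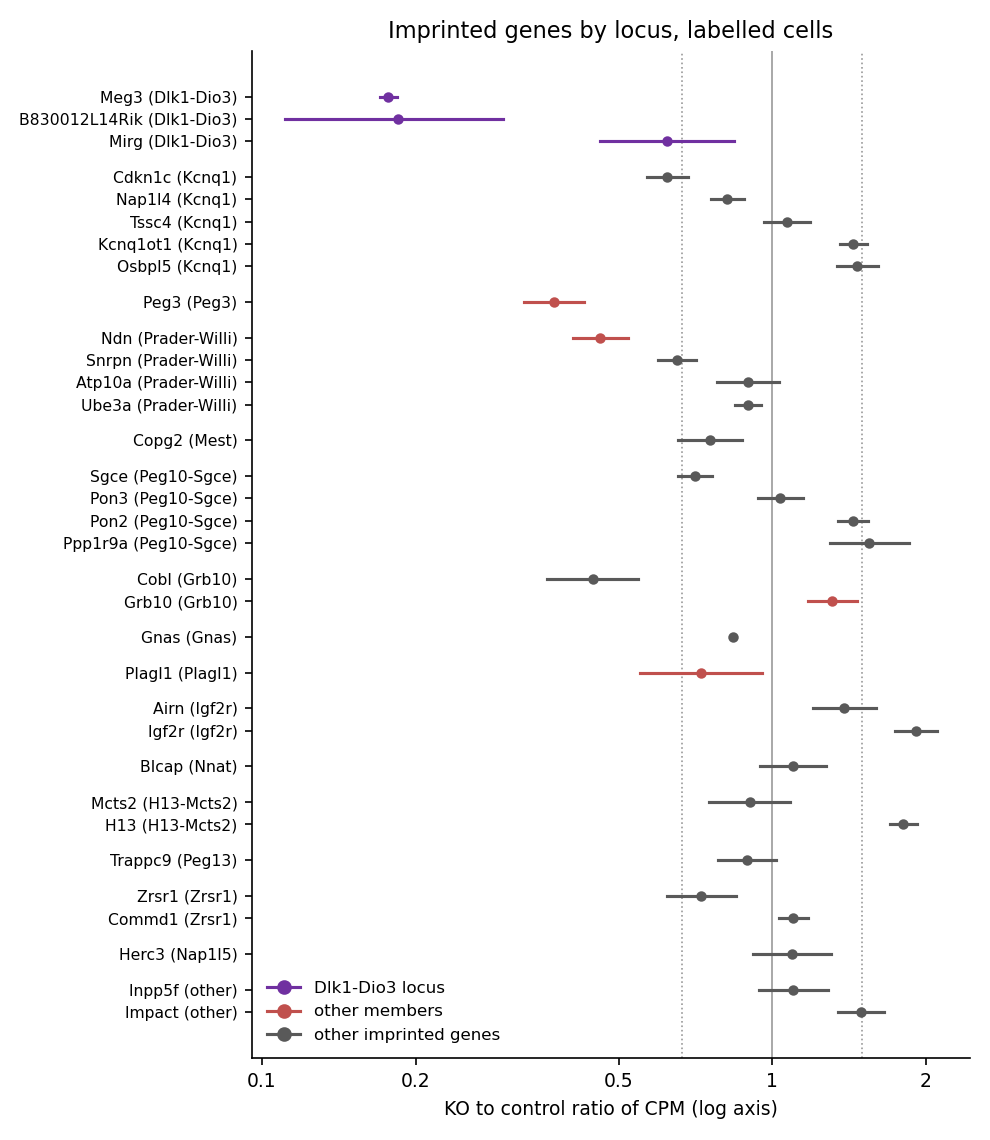
KO to control ratio of CPM with 95% intervals (log axis) for the 30 imprinted genes at 10 CPM or more and for Mirg, B830012L14Rik and Plagl1, grouped by locus; dotted lines mark 1.5 times in either direction. Meg3 and B830012L14Rik lie near 0.18, the other genes shown between about 0.37 for Peg3 and 1.91 for Igf2r.

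Summed by locus, Dlk1-Dio3 had the lowest ratio of the 16 loci. Its ratio of 0.181 compares with 0.377 (0.329 to 0.430) for the Peg3 locus, the next lowest, then 0.726 for Plagl1, 0.750 for Mest, 0.766 for Prader-Willi and 0.837 for Gnas. The H19-Igf2 locus, with 48 and 69 UMIs, had a ratio of 0.935 (0.637 to 1.38), the Grb10 locus 1.01, the Kcnq1 and Peg10-Sgce loci 1.10 each, Igf2r 1.51 and H13-Mcts2 1.69. A locus sum follows its most abundant gene: without Meg3 the interval of Dlk1-Dio3 (0.379 to 0.601) overlaps that of the Peg3 locus. The singletons were not summed, and 1 of them, Zdbf2, had a ratio below that of Dlk1-Dio3 (104 and 20 UMIs, 0.125, 0.0734 to 0.203). Of 20 regulators of imprints, 11 reached 10 CPM, of which 1 was lower and 0 higher. This was Jarid2, a Polycomb cofactor, at 12.9 and 8.45 CPM with a ratio of 0.655 (0.549 to 0.781). Trim28, the corepressor recruited by ZFP57, had a ratio of 0.691 and the X and imprint regulator Smchd1 0.694. At the other end were Tet3, which oxidises methylated cytosine, at 1.19, the methyltransferase Dnmt3a at 0.942 and the insulator protein Ctcf at 0.883.

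Contractile state was scored as the share of a cell's UMIs that came from 22 contractile genes such as Acta2, Myh11 and Cnn1; it is a range and not a cell type. Its median was 6.67% in control and 3.16% in KO cells. Each library's cells were cut into 3 equal groups (terciles), at 5.82% and 7.53% in the control and at 2.05% and 4.21% in the KO library. Within 0.2 percentage points of the 2 KO cuts lay 125 and 108 KO cells.

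In both libraries Meg3 was higher the lower the contractile share. Control cells had 1000 CPM (974 to 1026) in the low, 591 CPM (572 to 609) in the middle and 354 CPM (341 to 368) in the high tercile, a low to high ratio of 2.83 (2.70 to 2.96). KO cells had 157 CPM (150 to 165), 107 CPM (100.5 to 114) and 61.5 CPM (56.8 to 66.5), a ratio of 2.55 (2.33 to 2.80). By deciles the control level went from 1175 CPM in the least to 274 CPM in the most contractile cells. Among KO cells the 4 least contractile deciles lay between 137 and 180 CPM in no order, and the most contractile had 31.1 CPM. The order of the libraries therefore ran against the order within them: the KO cells were less contractile as a whole and had less Meg3.

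**Figure D4:**
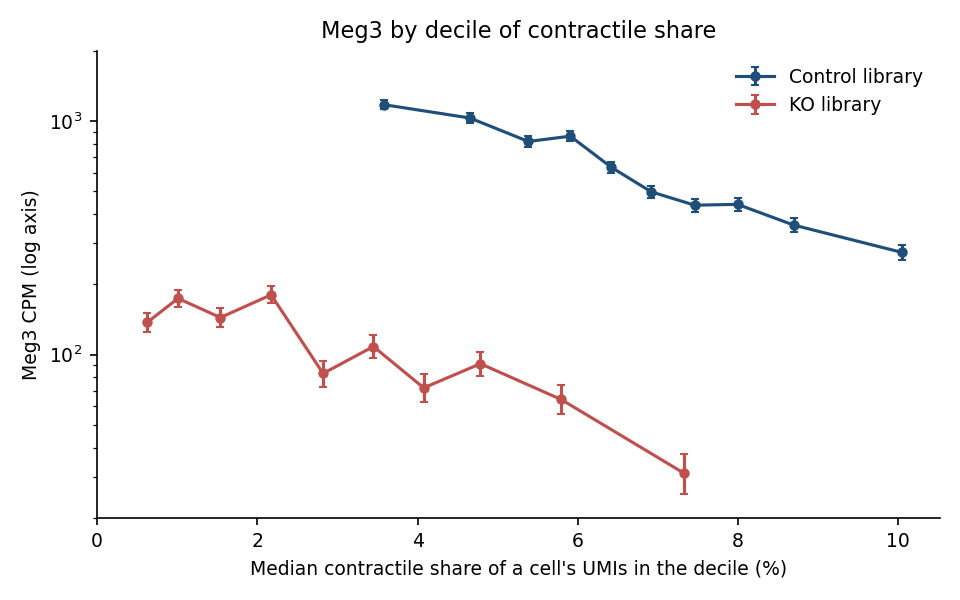
Meg3 CPM (log axis, 95% Poisson intervals) in deciles of labelled cells by contractile share, placed at each decile's median share, control library in blue and KO library in red. Meg3 is lower in more contractile cells of either library, and where the shares overlap the control cells lie far above the KO cells.

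The terciles differed in the share of Meg3-high cells, and in the control library also in the level within them. Cells with 5 or more Meg3 UMIs made up 53.9%, 32.4% and 27.0% of the low, middle and high tercile in the control and 15.5%, 10.95% and 6.25% in that of the KO mice. Within these cells Meg3 stood at 1703, 1510 and 1083 CPM in the control terciles and at 850, 806 and 802 CPM in the KO terciles, levels that depend on the minimum of 5 UMIs. The class is cut on Meg3 itself, so these values only describe how its UMIs were spread.

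In bins cut at the same contractile shares the gap between the libraries was wider than overall. With the KO cuts applied to both libraries, 2 control cells fell in the low, 167 in the middle and 1523 in the high bin, so no low-bin comparison was made. Shares were not matched within a bin. The median was 6.92% in control and 5.62% in KO cells of the high bin, and 3.59% and 3.16% in the middle bin. The part of this in the ratios below was not tested. In the high bin Meg3 had 572 CPM in control and 61.5 CPM in 640 KO cells, a ratio of 0.108 (0.0992 to 0.117). In the middle bin it had 1176 CPM in control and 107 CPM in 639 KO cells, a ratio of 0.0910 (0.0842 to 0.0983). Within the control library the middle bin had 2.06 times (1.95 to 2.16) the Meg3 of the high bin, and 4 of 5 members at 10 CPM were higher and 0 lower in it, against 15.6% and 4.26% of all genes; Plagl1 reached 10 CPM only in the middle bin, so it had to differ and nothing is read from the count. Mirg was also lower in KO cells of the high and the middle bin, with ratios of 0.181 (0.0753 to 0.373) and 0.138 (0.0582 to 0.321). Of members at 10 CPM, 3 of 4 were lower and 0 higher in the high bin, where 10.2% and 9.51% of all genes were, and 4 of 5 lower and 0 higher in the middle bin, against 18.7% and 11.9%. In the middle bin Plagl1 and Peg3 reached 10 CPM in the control library alone, so that count too is only given. Peg3 had ratios of 0.426 in the high and 0.204 in the middle bin, Ndn 0.595 and 0.471, Plagl1 0.430 and 0.482, and Grb10 1.32 and 0.904.

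**Figure D5:**
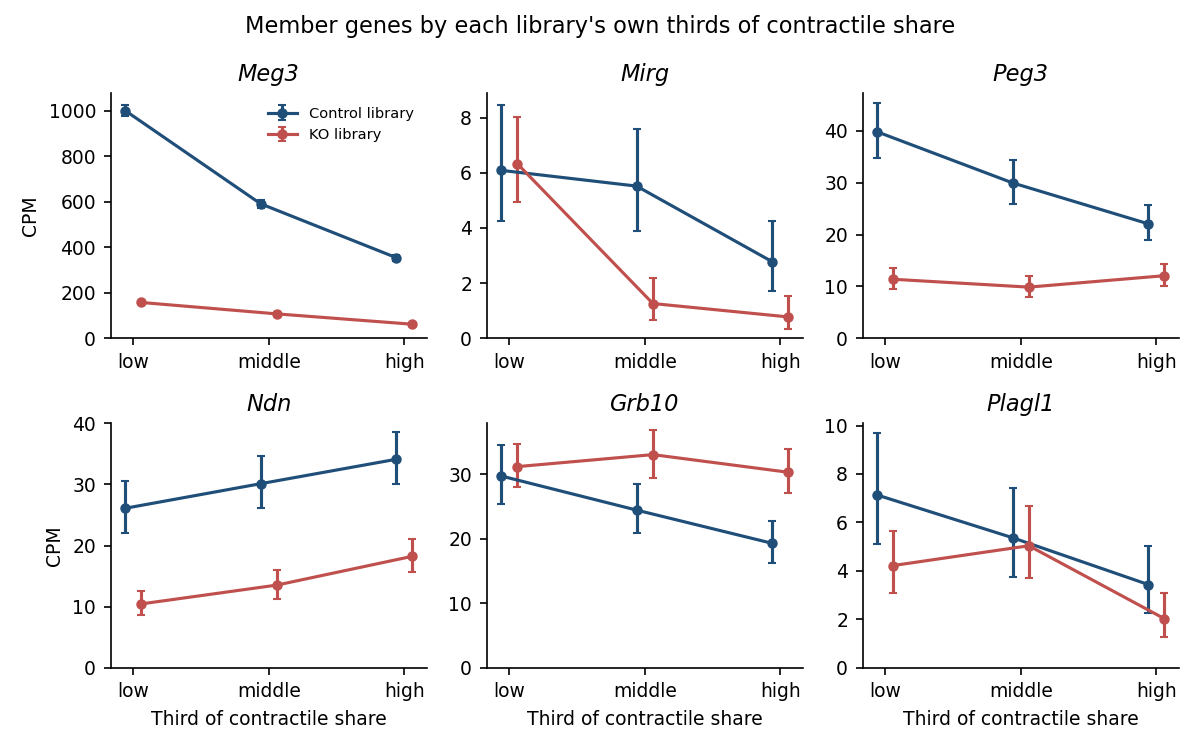
CPM of 6 members in the low, middle and high tercile of contractile share of each library, control in blue and KO in red, with exact 95% Poisson intervals. Meg3 is highest in the low tercile of both libraries and Ndn in the high tercile of both, while the lines of Peg3 and Grb10 slope downwards in the control library and lie nearly flat in the KO library; the difference between libraries was not tested.

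The other members had patterns of their own across the terciles. Ndn ran opposite to Meg3, with 26.1, 30.1 and 34.1 CPM from low to high among control cells and 10.5, 13.5 and 18.3 CPM among KO cells, low to high ratios of 0.765 (0.621 to 0.939) and 0.573 (0.450 to 0.727). Peg3 had 39.9, 30.0 and 22.1 CPM in the control, a ratio of 1.80 (1.47 to 2.22), but 11.4, 9.87 and 12.1 CPM, with a ratio of 0.943 (0.729 to 1.22), in the KO terciles. Grb10 likewise had a ratio of 1.54 (1.23 to 1.93) in the control and 1.03 (0.880 to 1.20) in the KO library. Plagl1 had ratios of 2.07 (1.24 to 3.53) and 2.08 (1.22 to 3.67), so its few UMIs were denser in less contractile cells of either library. Whether these ratios differ between the libraries was not tested.

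Mirg followed Meg3 in the control terciles, at 6.09, 5.52 and 2.78 CPM, a ratio of 2.19 (1.24 to 3.96). In the KO library it had 69, 12 and 8 UMIs, or 6.33, 1.26 and 0.773 CPM, and its ratio of 8.20 (3.94 to 19.7) lay above that of Meg3. In the low tercile the Mirg intervals of the libraries overlap (4.24 to 8.47 and 4.93 to 8.01 CPM), whereas Meg3 stood at 1000 and 157 CPM. B830012L14Rik had 36 and 15 UMIs in the low and high control terciles and 6 and 15 in the KO terciles.

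Many genes shift with contractile share, and the members have to be read against that. In the control terciles 3 of 4 members at 10 CPM were higher in the low tercile and 0 lower, against 15.3% and 1.95% of all genes, whose median log2 ratio was 0.18. In the KO terciles 1 of 4 was higher (Meg3) and 1 lower (Ndn), against 11.9% and 8.64%. Median depth in the low and high tercile was 9857 and 13648.5 UMIs in the control and 16065 and 15051.5 UMIs in the KO library. Malat1, a nuclear noncoding RNA that marks damaged or stripped cells when high, had 35990, 27672 and 19637 CPM in the control terciles and 45044, 47820 and 36415 CPM in the KO terciles. The 6 fibroblast markers (Pdgfra, Dpt, Col1a1, Lum, Dcn and Pi16) summed to 672, 456 and 362 CPM in the control and to 2139, 559 and 296 CPM in the KO terciles, while Pi16 stood at 0.0918 CPM in the low KO tercile and at 0 in the other 2. The part of depth, Malat1 and these markers in the Meg3 difference was not tested, but without cells with 5 or more UMIs of 5 of these markers the KO low to high ratio of Meg3 was 2.30 (2.06 to 2.57). With at most 5% mitochondrial UMIs it was 1.60 (1.39 to 1.84), a value from 216 cells in the low bin.

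Meg3 also varied with cell quality measures inside each library. By terciles of a cell's total UMIs it had 791, 627 and 534 CPM from the shallowest to the deepest control cells and 170, 106 and 86.0 CPM in KO cells. By terciles of mitochondrial share it had 809, 627 and 433 CPM in control and 121, 133 and 69.8 CPM in KO cells, and by terciles of eGFP 798, 614 and 460 CPM in control and 118, 126 and 85.8 CPM in KO cells. Every one of the 9 control tercile levels was above every KO level. The median mitochondrial share was 4.77% in labelled control and 5.73% in labelled KO cells. With cells limited to 5% mitochondrial UMIs the ratio between libraries was 0.166 (0.157 to 0.176), and thinned to equal depth it was 0.189 (0.177 to 0.202).

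Cells with at least 2 UMIs of the homeobox genes Dlx5, Dlx6 and Msx2 together, transcription factors known from the patterning of neural crest tissues, were looked at separately. The control library had 256 such cells and the KO library 113. Meg3 was higher in them than in the remaining labelled cells in both libraries, at 963 against 562 CPM in the control, a ratio of 1.71 (1.64 to 1.79), and at 254 against 99.6 CPM among KO cells (ratio 2.55, 2.32 to 2.81). Peg3 was higher too, with ratios of 1.69 (1.38 to 2.06) and 1.89 (1.32 to 2.65), whereas Ndn had 0.787 and 0.716 and Grb10 1.03 and 1.10. Plagl1 had 2.47 against 5.59 CPM in the control and 14.8 against 2.98 CPM in the KO library, ratios of 0.442 (0.173 to 0.947) and 4.98 (3.15 to 7.66), from 7 and 29 UMIs in the group. In the control library 2 of 4 members were higher and 0 lower in this group, against 13.1% and 3.97% of all genes. In the KO library 3 of 5 were higher and 0 lower, against 8.08% and 4.43%, but Plagl1 reached 10 CPM only in this group of KO cells, so nothing is read from that count. The group also differs in contractile share, since 184 of the 256 control and 78 of the 113 KO cells lay in the low tercile, and the part of that in these ratios was not tested. Within the group the KO to control ratio of Meg3 was 0.264 (0.240 to 0.291), and in all other labelled cells 0.177 (0.170 to 0.185). In the group 3 of 5 members were lower and 1, Plagl1, which reached 10 CPM in the KO library alone, higher in that library, against 19% and 15.2% of all genes. In all other labelled cells 3 of 4 members were lower and 0 higher in the KO library, against 10.6% and 14.1% of all genes.

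The authors' deposited table of cluster averages, in which each of 16 columns sums to 10000, also lists the members. In the authors' deposited table Meg3 averaged 5.32, 8.01, 21.3, 1.54 and 11.6 per 10000 in control clusters 0 to 4, and 0.332, 3.60, 1.69, 0.774 and 7.83 in KO clusters 0 to 4. Its 2 highest columns, control clusters 2 and 4, had 76.0 and 118 per 10000 of Acta2 in the authors' deposited table, against 228 in control cluster 0. In KO clusters 0 to 4 Acta2 averaged 243, 204, 46.1, 141 and 60.1 per 10000 in the authors' deposited table. These KO averages did not keep a reverse order with Meg3. The cells behind each average are not known here, and control cluster 2 had 0 of Mirg, Peg3, Plagl1 and Grb10 in the authors' deposited table. Control cluster 3 had 9.73 per 10000 of eGFP and 3.25 of the leukocyte gene Ptprc in the authors' deposited table, so it is not a cluster of labelled SMCs alone. Control clusters 5 to 8, with at most 0.485 per 10000 of eGFP and 2.23 or more of the leukocyte gene Ptprc, had Meg3 at or below 0.0188 in the authors' deposited table.

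Genes that varied with Meg3 from cell to cell were weakly tied to it. Over single cells within each library, among 2857 genes at 50 CPM or more and ranked by the smaller of the 2 Pearson correlations of log counts, the 10 nearest were Smoc1, Abi3bp, Lamc3, Nbl1, Klf4, Kcnj8, Bgn, Nrp1, Jund and Myh9. Smoc1, a basement membrane protein, had r of 0.23 over the 1692 control and 0.21 over the 1919 KO cells, Lamc3, a laminin chain, 0.24 and 0.19, Klf4, a transcription factor of SMC state changes, 0.24 and 0.14, and Myh9 0.12 in each. These cells share a library and differ in depth and contractile share, so the values only describe, and correlations of this size in sparse counts are no finding. The most negative were contractile genes, led by Acta2 at -0.30 and -0.16. None of the 10 nearest genes was lower in the KO library to the extent of Meg3, and their KO to control ratios lay between 0.885 for Jund and 2.95 for Nbl1.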

How the data were processed

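Per the labels' protocols, aortic cells were digested with collagenase and elastase, sorted and sequenced on the 10x Chromium platform. The tools named are bcl2fastq, Cell Ranger and Seurat 2.0, with the build mm10, per the submitters' processing notes. The authors deposited raw UMI counts per gene and cell, and a table of cluster averages whose columns sum to 10000, a unit taken from the values (another unit, not counts).

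From the deposited counts, UMIs were summed over labelled cells and divided by their total (CPM), with Python 3.11.15, numpy 2.4.6 and scipy 1.17.1. Ratios have exact conditional binomial intervals, levels exact Poisson and shares exact binomial (Clopper-Pearson) intervals at 95%; all cover counting error only. There was no test. A gene was called at 10 CPM in 1 or both libraries and 1.5 times. The code was tested on simulated data. Scrublet called 6 doublets per library, kept in and left out once. Sequences are from RefSeq tables, positions from GENCODE vM21.

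The members and all lists were chosen with earlier results of these data known. Named genes are all members, the Dlk1-Dio3 genes, listed imprinted genes at 50 CPM or past 1.5 times, up to 3 regulators at either end and the 10 genes nearest to Meg3. Alternatives changed the eGFP, mitochondrial, gene, depth and contractile limits.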

Additional observations from a re-analysis of the deposited data

Results flagged for a closer look

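Cells that the mitochondrial limit removed held Meg3 as well. The 45 control cells with 5 or more eGFP UMIs that were over the limit had 176 Meg3 UMIs, or 801 CPM (687 to 929), at a median depth of 4353 UMIs. The 146 such KO cells had 127 UMIs, or 85.2 CPM (71.1 to 101). The gap between the libraries was thus also present in cells outside the comparison, although these cells come from the same 2 libraries.

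Gnas had opposite directions in the 2 libraries across contractile terciles, with a low to high ratio of 1.08 (control) and 0.887 (KO). The difference was not tested.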

How the results depend on the processing

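Under all 11 alternatives for cells and totals Meg3 stayed lower in the KO library, between 0.154 and 0.189 against 0.177. The ratio of Meg3, and of Meg3 with Mirg (0.180 as reported), was 0.166 and 0.171 with at most 5% mitochondrial UMIs, 0.189 and 0.191 with cells thinned to 5000 UMIs, 0.186 and 0.190 with the 61 most abundant genes left out of the totals, and 0.154 and 0.155 without fibroblast marker cells, a choice made after the data were seen. The count of members lower in the KO library was 1 in place of 3 with a minimum of 50 CPM and 3 under the other 12 alternatives. Centring on the median gene moves ratios by -0.04 on the log2 scale. Peg3 kept 0.363 to 0.420, Ndn 0.430 to 0.485, Mirg 0.383 to 0.863, Plagl1 0.477 to 0.931 and Grb10 1.12 to 1.48. For the control library the low to high ratio at the KO cuts rests on 2 low-bin cells (2.63 as computed): it was 0.847, in the opposite direction, with eGFP at 1 UMI (10 cells), 4.70 with eGFP at 20 UMIs, 5.72 without the Dlx5, Dlx6 and Msx2 cells, and 3.91 with Acta2, Tagln and Myh11 alone (10 cells). For the KO library it was 1.60 with at most 5% mitochondrial UMIs, 2.17 thinned, 2.26 without the Dlx5, Dlx6 and Msx2 cells and 2.30 without fibroblast marker cells, against 2.55. No paired analysis was possible because each genotype has 1 library, and no replicate could be left out. Depth limits the sparse members: 3 UMIs equal 0.150 CPM (control) and 0.0975 CPM (KO).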
